A study of Bos taurus with 12 samples.

Results

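S100A8, S100A9 and S100A12, the calgranulins, are small calcium-binding proteins of neutrophils and monocytes, and their mRNAs were followed here cow by cow in the blood of 12 Holstein dairy cows. The members were chosen by gene name, as 3 of the 27429 genes of a count table, and all 3 passed the minimum for testing, a mean of 10 reads over the libraries. They were chosen with their levels and fold changes in these same libraries already known, so their levels, ratios and fold changes are given as a description, without a test. The study asked how an injected (parenteral) trace element supplement bears on blood gene expression in the weeks around calving. All 12 animals were female Holsteins sampled on day 7 after calving, 6 supplemented and 6 control, each with 1 library. Blood was taken from the jugular vein into RNAlater, haemoglobin transcripts were depleted, and paired-end reads were sequenced on an Illumina NovaSeq instrument. The sources used here do not name the elements, the dose, the days of injection, what the control cows received or the ages of the animals. The labels name the material as white blood cells, while the protocol describes blood put directly into RNAlater. Replicate numbers only name the cows within a group.

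S100A8 and S100A9 pair into calprotectin, a complex that neutrophils hold in the cytosol in very large amounts and that monocytes carry too. Calprotectin binds zinc and manganese and so keeps these trace elements from microbes, and S100A12 binds zinc and copper. Once released, the calgranulins act as alarm signals through TLR4 and the receptor for advanced glycation end products (AGER, also called RAGE). In the bovine annotation of ARS-UCD2.0 the genes follow each other on chromosome 3 in the order S100A8, S100A12, S100A9. The lncRNA LOC132344836 comes next after S100A9, with PGLYRP4, a peptidoglycan recognition protein, beyond it. That annotation was used for gene order only, since the counts were made on the earlier build ARS-UCD1.2, and it is not known here whether the counting used strand.

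Total counts ranged from 6778640 to 16851541 per library, and supplemented cow 6 had the deepest library, the highest mean base quality (35.82, the lowest being 35.74) and the lowest TMM scaling factor (0.717, the others being between 0.946 and 1.09). Depth did not limit the members: the lowest count of any of them in any library was 645 reads and the highest 470444. Marker lists of neutrophils, monocytes, B cells and T cells had counts in every library, as labelled, but single neutrophil markers came close to 0. In their lowest cows the chemokine receptors CXCR1 and CXCR2 stood at 0.131 and 0.262 CPM and ALPL at 0. The summed level of the 10 neutrophil markers found, in CPM (read counts scaled to library size, with TMM factors), ran from 318 to 13630 CPM in supplemented and from 342 to 3794 CPM in control cows. B cell markers, 7 of 7 found, ran from 533 CPM, in supplemented cow 6, to 3776 CPM. Eosinophil-defining EPX, PRG2, PRG3 and CLC and platelet PF4 and PPBP were not found by symbol and were not analysed here.

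S100A8, the smaller partner in calprotectin, stood at 157 CPM in the lowest supplemented cow, at a median of 242 CPM and at 19470 CPM in the highest. In control cows its lowest, median and highest levels were 55.4, 199 and 1855 CPM. One animal of each group, supplemented cow 6 and control cow 4, stood far above its companions, and the other 10 cows lay between 55.4 and 487 CPM.

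S100A9, the larger partner, had a lowest, median and highest level of 258, 357 and 29183 CPM in supplemented cows. In control cows these were 80.7, 344 and 4230 CPM. The highest value of each group again came from supplemented cow 6 and control cow 4, and the remaining cows of both groups lay between 80.7 and 924 CPM.

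S100A12, known in human and cattle and absent as a gene from mouse and rat, ran from 362 CPM through a median of 570.5 CPM to 38989 CPM in supplemented cows. Control cows ran from 168 CPM through a median of 508 CPM to 5485 CPM. For all 3 genes 1 of 6 supplemented cows, number 6, stood above the highest control cow, and the ranges of the groups overlapped.

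**Figure D1:**
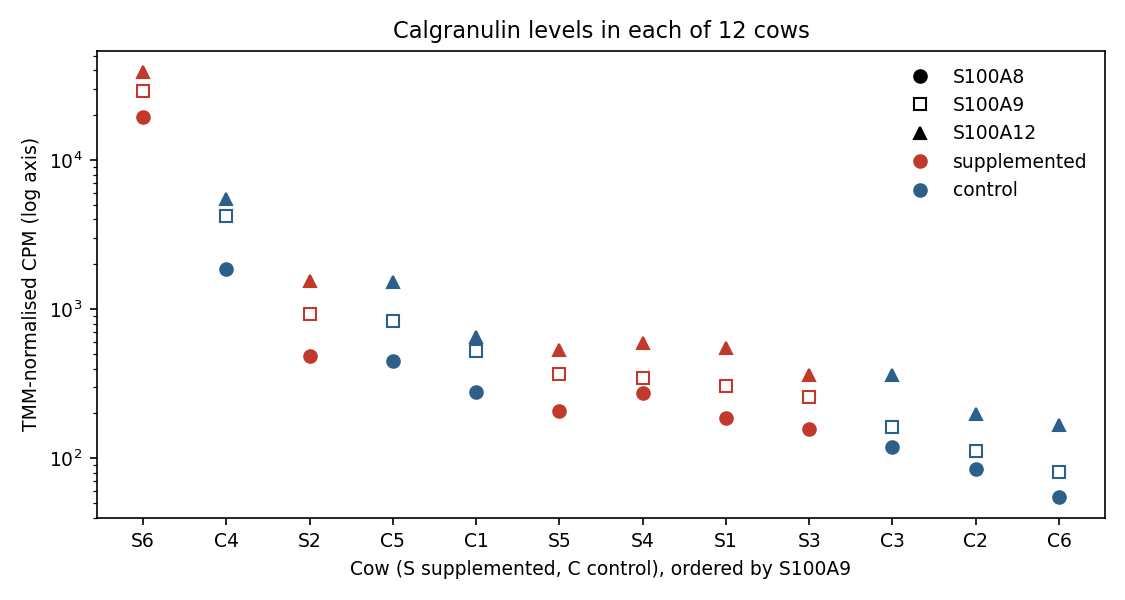
Levels of S100A8, S100A9 and S100A12 in CPM (log axis) in each of the 12 cows, by group, with 1 point per cow. Supplemented cow 6 is highest for all 3 genes (19470, 29183 and 38989 CPM) and control cow 4 second, while the other 10 cows of both groups overlap.

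The plot of levels by cow shows that the widest gaps lay between single animals, while the groups overlapped. By read count, S100A12, S100A9 and S100A8 were the genes ranked 1, 2 and 3 of the whole library in supplemented cow 6. In control cow 4 they ranked 6, 10 and 53, and in control cow 6, the lowest cow, 1012, 2377 and 3413. Together the 3 genes took 6.28% of all counted reads in supplemented cow 6 (95% Wilson interval 6.26 to 6.29%) and 1.21% in control cow 4 (interval 1.199 to 1.214%). In the other 10 cows they took between 0.0327%, in control cow 6, and 0.294%, in supplemented cow 2. These intervals cover counting error only, which was far smaller than the difference between cows.

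The order of the cows was nearly the same for each gene. From the top it began with supplemented cow 6, control cow 4, supplemented cow 2, control cow 5 and control cow 1, and it ended with control cows 2 and 6, for all 3 genes. Most neighbours in the order were farther apart than their counting intervals. The exceptions were control cow 1 and supplemented cow 4 for S100A8, and supplemented cows 5 and 4 for S100A9. For S100A12, supplemented cow 2 and control cow 5, supplemented cows 1 and 5, and control cow 3 and supplemented cow 3 could not be told apart. With 1 library per cow the error between repeat draws of the same animal is not known.

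From the lowest to the highest cow the level spanned 352-fold for S100A8, 362-fold for S100A9 and 232-fold for S100A12. Without supplemented cow 6 the span was 33.5, 52.4 and 32.6-fold, and without both high cows 8.80, 11.4 and 9.13-fold. The standard deviation of log2 CPM over the 12 cows was 2.26, 2.36 and 2.20, beside a median of 0.44 over the 11990 genes tested. Of those genes, 0.667%, 0.517% and 0.767% had a larger standard deviation than S100A8, S100A9 and S100A12. Without both high cows the calgranulins' standard deviations on the log2 scale were 1.001, 1.156 and 1.060 and these shares 10.7%, 6.62% and 9.02%.

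While the levels moved over more than 2 orders of magnitude, the proportions of the 3 transcripts moved little. Transcript lengths were not used here, so the ratios are of reads, not of molecules, and compare cows only. The ratio of S100A8 to S100A9 reads was 0.629 ± 0.0934 (SD, n = 6) in supplemented and 0.612 ± 0.128 (SD, n = 6) in control cows, a difference smaller than either standard deviation. It ran from 0.438 in control cow 4 to 0.793 in supplemented cow 4, a 1.81-fold range.

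The ratio of S100A12 to S100A9 was 1.56 ± 0.190 (SD, n = 6) in supplemented and 1.74 ± 0.403 (SD, n = 6) in control cows, again closer than the spread between cows. It ran from 1.24 in control cow 1 to 2.24 in control cow 3, a 1.80-fold range. S100A12 held the largest share of the reads of the 3 genes in every cow, from 44.5% in supplemented cow 6 to 56.4% in control cow 3. S100A9 held from 25.2% to 36.6% and S100A8 from 15.96% to 22.8%.

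The high cows were alike in 1 proportion and apart in another. Their ratios of S100A12 to S100A9 were close and low, 1.34 in supplemented cow 6 and 1.30 in control cow 4, with only control cow 1 lower than both, beside a median of 1.68 over the 12 cows. Supplemented cow 6 had the highest ratio of S100A8 to S100A12 of the 12 cows, 0.499, with 22.2% of the 3 genes' reads from S100A8. Control cow 4 had the highest share of S100A9, 36.6%, and a share of S100A8 of 16.03%. The counting intervals of the S100A8 share in these cows, 22.1 to 22.3% and 15.8 to 16.3%, did not meet.

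**Figure D2:**
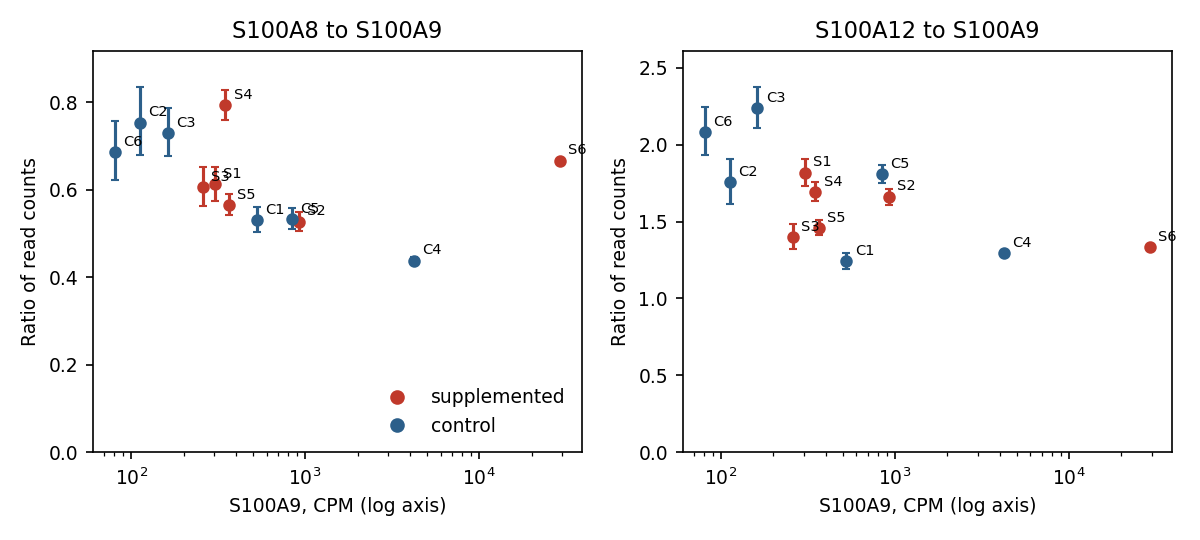
Ratio of S100A8 to S100A9 reads and of S100A12 to S100A9 reads in each of the 12 cows, by group, with bars for the 95% Wilson interval of counting error. The S100A8 ratio lies between 0.438 and 0.793 and the S100A12 ratio between 1.24 and 2.24, with both groups over much of the same range.

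As the plot of the ratios shows, several cows differed in composition beyond counting error, though by less than 2-fold. Among all 11990 genes tested, the genes with the steadiest log2 ratio to each calgranulin over the 12 cows were the other 2 calgranulins. The standard deviations of these log2 ratios were 0.25 for S100A8 with either partner and 0.27 for S100A9 with S100A12. Next came ALOX5AP, which presents arachidonic acid to 5-lipoxygenase for leukotriene synthesis, at 0.31 to S100A9, 0.41 to S100A8 and 0.41 to S100A12. Without both high cows SULT1A1, a phenol sulfotransferase, had a steadier ratio to S100A8 and to S100A12 than the other calgranulins, with standard deviations of 0.21 and 0.22. For S100A12, NIBAN1 (0.232) also came ahead of S100A8 (0.235), and IL13RA1 (0.238) and MOCS1 (0.243) came ahead of S100A9 (0.256). Only the 5 steadiest genes were listed for each calgranulin, so further genes may come ahead of S100A9 for S100A12. For S100A9 the other calgranulins remained the steadiest. Pearson's r of log2 CPM between the members was 0.994 to 0.995 over 12 cows and 0.976 to 0.989 over the 10 cows without the high ones. These correlations share the libraries and their scaling factors and are given without a test.

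The comparison of supplemented with control cows asks whether the supplement went with a difference in blood transcripts on day 7. edgeR's quasi-likelihood test called 0 of the 11990 genes at an adjusted p under 0.05, which is 0% in either direction, so 0 of the 3 calgranulins were called against a background of 0%. At an unadjusted p under 0.05 it held 191 genes. DESeq2 called 2 genes and limma-voom called 0. The 2 genes, listed by identifier only (ENSBTAG00000034185 and ENSBTAG00000053198) and named here after their values were seen, were neither calgranulins nor genes of the lists below, and both were highest in supplemented cow 4. The CPM ranges of the groups did not overlap for 6 genes, 0.05% of those tested, and for 0 of the 3 calgranulins.

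The fitted log2 fold change, supplemented minus control, was 2.87 ± 1.44 (SE) for S100A8, 2.40 ± 1.46 for S100A9 and 2.34 ± 1.37 for S100A12. The authors' deposited table gives 2.93 ± 1.29, 2.45 ± 1.32 and 2.40 ± 1.26 for the same genes. The ratio of the group medians was much closer to 1, at 1.22, 1.04 and 1.12. Without supplemented cow 6 the fold changes were -0.85 ± 0.83, -1.17 ± 0.96 and -0.97 ± 0.87, so the sign turned with 1 library. Without control cow 4 they were 4.15, 3.94 and 3.63, and without both high cows 0.42 ± 0.56, 0.36 ± 0.65 and 0.31 ± 0.62. limma-voom, which fits log values, gave 1.14, 1.08 and 0.96.

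The sequencing summary lists a first index sequence shared by 8 libraries and another shared by 4. Supplemented cow 6 and control cow 4 both belonged to the larger set, with 5 supplemented and 3 control cows. Within that set the fold changes were 2.33, 1.81 and 1.74. The smaller set held 1 supplemented cow, too few for a value of its own.

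Several marker lists moved with the calgranulins, neutrophil markers among them. Supplemented cow 6 had the highest summed level, 13630 CPM, but control cow 5 came next with 3794 CPM, ahead of control cow 4 with 2870 CPM and supplemented cow 2 with 2809 CPM. The slope of log2 S100A9 on the log2 marker sum was 1.32 over the 12 cows (r = 0.925) and 0.84 over the 10 cows without the high ones (r = 0.906), given as a description. For the immature granulocyte markers r was 0.979 over 12 cows and 0.928 over 10. For the monocyte markers it was 0.715 and 0.895, and for the B cell markers -0.847 and -0.792. The T cell (0.523 and 0.633) and NK and cytotoxic cell markers (0.651 and 0.663) also rose with S100A9. So did the platelet (0.561 and 0.695), erythroid (0.566 and 0.558) and eosinophil markers (0.458 and 0.782, with 3 of 8 found). The rise was thus not particular to neutrophil or monocyte markers. In bulk blood, fewer cells of a type and less RNA per cell cannot be told apart.

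Per unit of the summed marker level, S100A9 stood at 2.14 in supplemented cow 6 and 1.47 in control cow 4, and from 0.221 to 0.813 in the other 10 cows. S100A8 stood at 1.43, 0.646 and 0.118 to 0.493 in the same order. S100A12 stood at 2.86, 1.91 and 0.399 to 1.14. In both high cows each calgranulin was thus above the other 10 cows relative to the neutrophil markers as well.

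**Figure D3:**
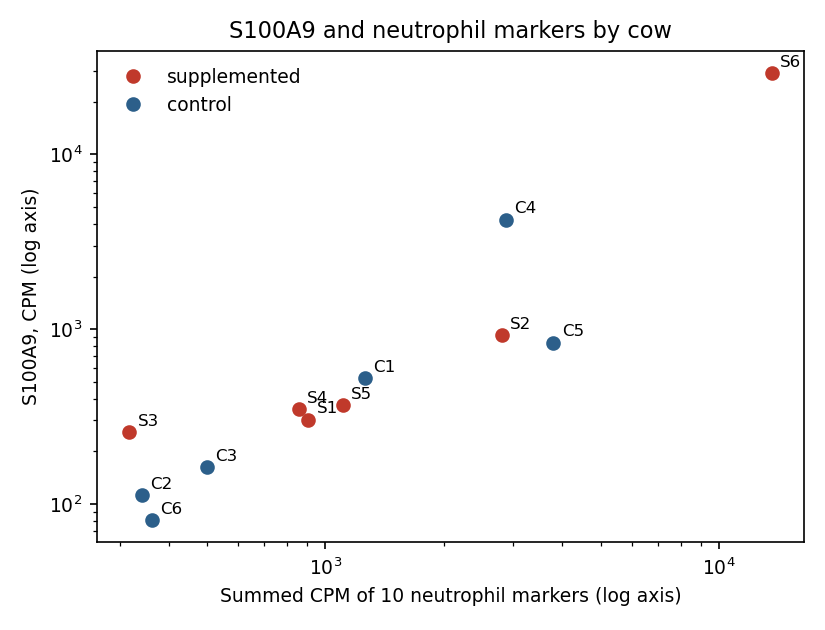
S100A9 in CPM against the summed CPM of 10 neutrophil markers (both axes logarithmic), with 1 point per cow and the groups in different colours. Supplemented cow 6 (13630 CPM of markers) and control cow 4 (2870 CPM) lie above the other cows. Control cow 5, with 3794 CPM of markers, and control cow 6 lie lowest for their marker levels, at 0.221 and 0.223 per unit of markers.

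The contrast of control cows 4 and 5 stands out in the plot against neutrophil markers. Cow 4 had 4.15 times the S100A8, 5.05 times the S100A9 and 3.62 times the S100A12 of cow 5, with 0.756 times its neutrophil markers and 1.03 times its monocyte markers. The immature granulocyte markers, 7 of 8 found, were 6.03 times as high in cow 4, at 103 against 17.0 CPM. They stood at 331 CPM in supplemented cow 6 and between 1.44 and 21.5 CPM in the 10 cows that are not among the high ones.

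Within that list the level came mostly from LTF, the iron-binding protein lactoferrin. LTF was at 252 CPM in supplemented cow 6, 80.9 CPM in control cow 4 and 0.741 CPM in control cow 5. The other markers of the list did not all go the same way between these control cows. OLFM4, MPO and AZU1 were higher in cow 4, at 9.81, 3.80 and 2.08 against 2.67, 1.78 and 0 CPM. CEBPE, ELANE and PRTN3 were lower in cow 4, at 6.01, 0.123 and 0 against 8.15, 3.41 and 0.296 CPM. The azurophil granule proteases ELANE, AZU1 and PRTN3 were at most 3.41 CPM in any cow. ALPL, alkaline phosphatase and a neutrophil marker, was at 1778 CPM in supplemented cow 6, 285 CPM in control cow 4 and at most 11.3 CPM elsewhere. CSF3R, the receptor for granulocyte colony-stimulating factor, was at 4965, 604 and at most 1276 CPM. The part of cell composition, depth, base quality and index set in the calgranulin levels was not tested.

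The receptors of the calgranulins showed no group difference that passed the test, with 0 of 7 genes called and all 7 fold changes positive. Their median log2 fold change was 0.48, beside 0.01 over all genes tested, of which 51.5% were positive. Without supplemented cow 6, 3 of the 6 receptors still tested were positive and the median was -0.01. CD36, the scavenger receptor, passed the count minimum through that cow alone. TLR4, the lipopolysaccharide receptor that calprotectin also engages, was at 333 CPM in supplemented cow 6, 157 CPM in control cow 4 and 16.3 to 255 CPM in the other cows. Its mean r with the 3 calgranulins over the 12 cows was 0.843. The TLR4 co-receptors LY96 (MD-2) and CD14 had 0.944 and 0.775, and AGER 0.772. BSG, the immunoglobulin-family protein basigin, which binds S100A9, had 0.329 and stayed between 122 and 164 CPM in all cows.

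Below these receptors, 0 of 12 signalling genes were called, 7 fold changes were positive, and the median was 0.07. Without supplemented cow 6, 1 of 12 was positive and the median was -0.19. MYD88, the adaptor of TLR4, followed the calgranulins with a mean r of 0.943, at 1382 CPM in supplemented cow 6, 314 CPM in control cow 4 and 140 to 295 CPM elsewhere. MAPK14, the kinase p38 alpha, had 0.954. The cytokine targets did not peak in the same animals. IL1B and TNF were highest in control cow 5, at 1699 and 265 CPM, against 258 and 11.4 CPM in supplemented cow 6. In control cow 4 IL1B was at 193 CPM, and its median over the 10 cows without the high ones was 37.0 CPM. The mean r of IL1B with the calgranulins was 0.604 over 12 cows and 0.790 over those 10. For TNF it was 0.142 and 0.613.

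Of the other S100 genes, 14 of 16 listed were found, 6 were tested and 0 were called, with 4 fold changes positive and a median of 0.36, or -0.11 without supplemented cow 6. S100A11, an annexin-binding relative, came closest to the calgranulins, with a mean r of 0.955 and levels of 1094 CPM in supplemented cow 6, 274 CPM in control cow 4 and 29.6 to 226 CPM in the others. S100A4 and S100A10, which bind myosin and annexin A2, peaked in supplemented cow 2, at 677 and 273 CPM, and had 0.717 and 0.733. S100B, a glial marker in other tissues, reached 17.9 CPM in supplemented cow 6, against a highest level of 1.04 CPM in the remaining 11, and passed the count minimum through that cow alone.

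The phagocyte NADPH oxidase makes superoxide, and calprotectin is known to bring arachidonic acid to it. None of its 6 genes was called (0 of 6), all 6 fold changes were positive with a median of 0.33, and without supplemented cow 6 only 1 was positive, with a median of -0.06. NCF1 (p47phox) had a mean r of 0.902 and stood at 1302 CPM in supplemented cow 6, 286 CPM in control cow 4 and 53.1 to 323 CPM elsewhere. CYBB, the catalytic subunit gp91phox, had 0.201 and a range of 377 to 831 CPM. Its mean r was -0.626 without supplemented cow 6 and -0.537 without both high cows, where NCF1 had 0.752.

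Among transcription factors of myeloid cells 0 of 7 were called, 6 were positive and the median was 0.50, or -0.08 without supplemented cow 6. STAT3, CEBPD and SPI1 (PU.1) had mean r values of 0.947, 0.932 and 0.919. HIF1A, the oxygen-regulated factor, went the other way, with -0.748 and levels of 263 to 528 CPM.

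Of 9 genes for withholding or handling metals 0 were called, with 7 positive and a median of 0.50, or -0.09 without supplemented cow 6. HP, the haemoglobin-binding acute-phase protein haptoglobin, had a mean r of 0.932 and the levels 2422, 758 and 24.1 to 524 CPM in supplemented cow 6, control cow 4 and the others. SLC39A8, a zinc and manganese importer, had 0.897 and reached 10.6 CPM. MT2A, a metallothionein that takes up zinc, had -0.111, with levels between 2.82 and 8.93 CPM. LCN2, the siderophore-binding lipocalin, was at 1566 CPM in supplemented cow 6 but at 59.0 CPM in control cow 4, within the 8.58 to 67.3 CPM of the other cows. Its mean r was 0.517 over 12 cows and -0.807 over the 10 without the high ones.

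Of 23 neutrophil granule genes 21 were found and 17 tested, and 0 were called. Of these 17, 6 no longer passed the count minimum without supplemented cow 6, so no median is read from the list. CHI3L1, a chitinase-like protein of specific granules, had a mean r of 0.971 and stood at 1194, 165 and 10.4 to 134 CPM in supplemented cow 6, control cow 4 and the others. MMP9, the gelatinase, had 0.952 and stood at 1748, 208 and 0.262 to 22.8 CPM. CATHL2, a bovine cathelicidin, was at 950 CPM in supplemented cow 6, 6.13 CPM in control cow 4 and at most 1.90 CPM elsewhere.

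Over the 62 tested genes of these 7 lists 0 were called, 7 had an unadjusted p under 0.05 with edgeR, 1 with DESeq2 and 0 with limma-voom, beside 191 of all 11990 genes with edgeR. Of the 62, 8 passed the count minimum through supplemented cow 6 alone (S100B, CD36, CAMP, CATHL2, CATHL3, CATHL4, CATHL5 and CATHL6), and nothing is read from the 7. Without that cow 0 of the 54 genes still tested had an unadjusted p under 0.05. The lists were put together with earlier results of these libraries known.

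**Figure D4:**
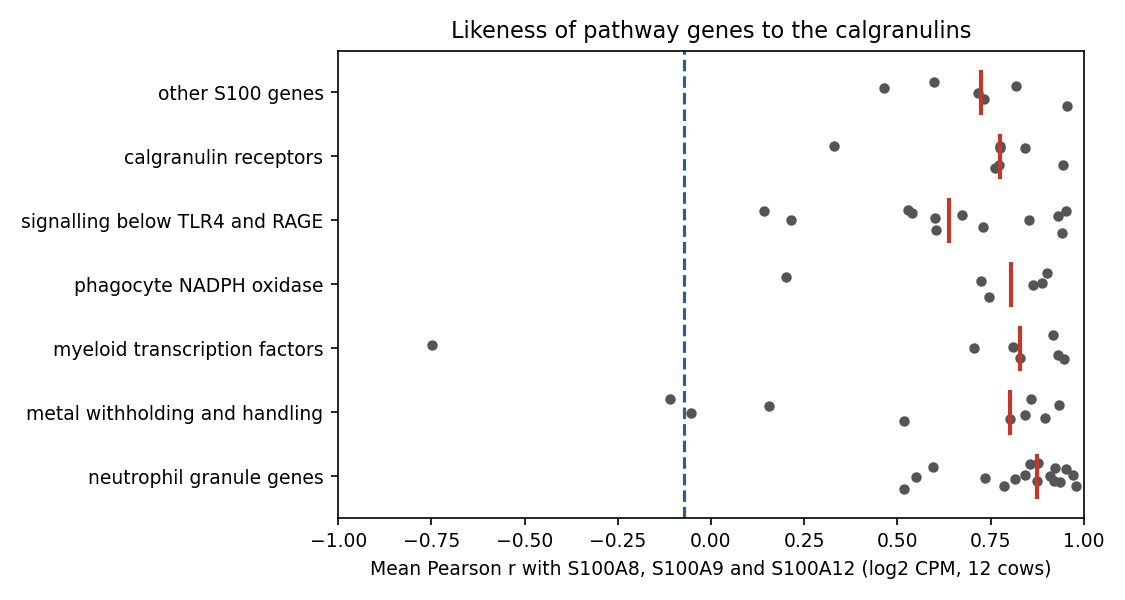
Mean Pearson's r of log2 CPM with the 3 calgranulins over the 12 cows, for each tested gene of the 7 lists, with 1 point per gene a red bar for each list median and a dashed line for the median of all genes tested (-0.07). Most points lie above 0, the median r is 0.638 for signalling genes, and HIF1A (-0.748) lies farthest below 0.

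The plot of likeness by list holds the 8 genes that passed through supplemented cow 6 alone, the cow that also sets the calgranulin peak, so it is a description only. Without both high cows the median r went from 0.805 to 0.350 for the NADPH oxidase genes and from 0.803 to 0.376 for the metal genes. For the receptors it went from 0.774 to 0.819, and for the transcription factors from 0.829 to 0.785. Single receptors went either way, AGER from 0.772 to 0.273 and TLR4 from 0.843 to 0.948. The genes most like the calgranulins were then taken from all 9146 named genes with a mean of at least 5 CPM, by mean r over the 12 cows and the 3 members. ALOX5AP came first with 0.988. It stood at 1314 CPM in supplemented cow 6, 148 CPM in control cow 4 and 3.62 to 50.01 CPM in the others, the same order of high cows as the calgranulins.

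KREMEN1 (a receptor for Dickkopf proteins), MAPK13 (p38 delta), RAB3D (a GTPase of secretory granules), RETN (the cytokine resistin), PKM (pyruvate kinase) and WIPI1 (an autophagy protein) each had 0.980. RETN was at 1396 CPM in supplemented cow 6, 61.3 CPM in control cow 4 and 2.31 to 36.5 CPM elsewhere. PKM, a glycolytic enzyme made by most cells, was at 7805, 1625 and 386 to 1226 CPM. LGALS3BP, RIDA, C7H19orf38, MEGF9 and SLC16A3, the last a lactate exporter, completed the 12 with 0.974 to 0.979.

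At the other end RSL1D1, a nucleolar protein of ribosome biogenesis, had -0.976. It was lowest in supplemented cow 6 (30.8 CPM), next lowest in control cow 4 (50.9 CPM) and between 60.5 and 93.5 CPM in the others. LCLAT1, HAUS1 (a subunit of the augmin complex of the spindle), RPL22L1 and NUCKS1 (a nuclear DNA-binding protein) followed with -0.962 to -0.955. LCLAT1, an acyltransferase of lysocardiolipin, ran from 7.87 to 50.7 CPM, a far smaller span than that of the calgranulins.

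**Figure D5:**
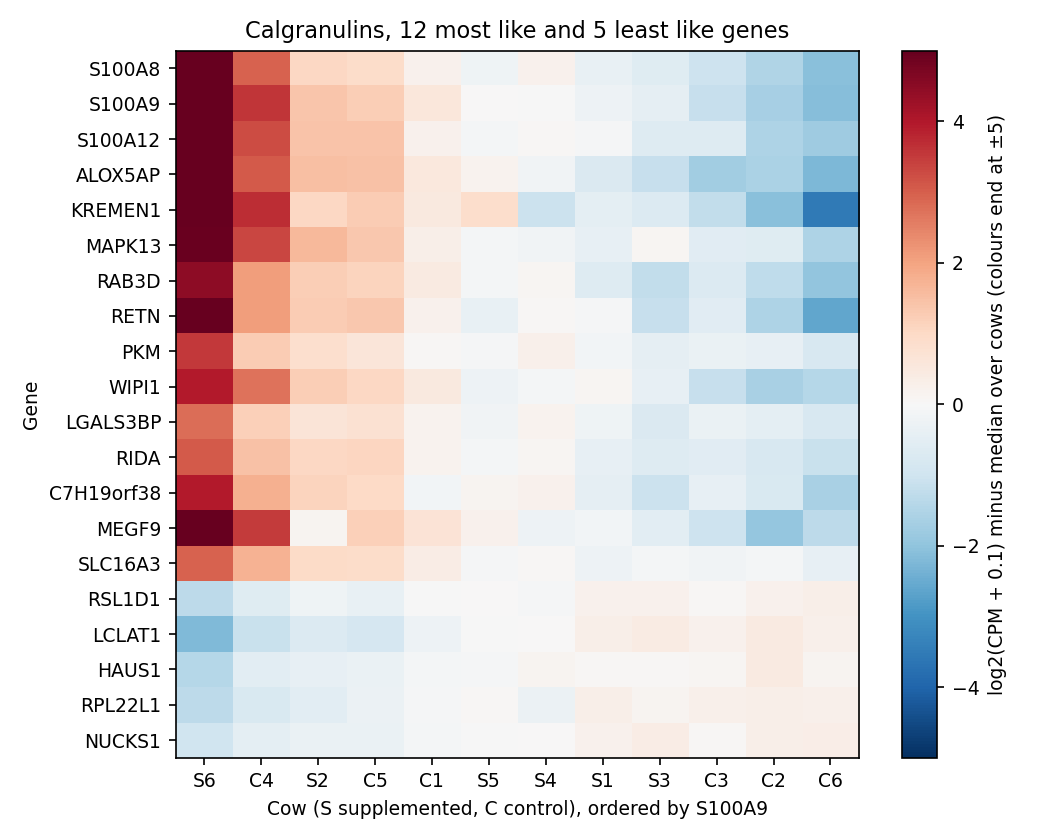
Heat map of the 3 calgranulins, the 12 most like and the 5 least like genes in the 12 cows, as log2(CPM + 0.1) minus the gene's median over cows, with cows ordered by S100A9 and colours ending at ±5. Supplemented cow 6 and control cow 4 are highest for every gene of the upper block and lowest for every gene of the lower block.

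In the heat map of like genes supplemented cow 2 and control cow 5 came next after the high cows for 11 of the 12 most like genes, as they did for the calgranulins, the exception being MEGF9. A mean r of at least 0.9 was reached by 516 genes (5.64%) over 12 cows, by 139 (1.52%) without supplemented cow 6 and by 293 (3.20%) without both high cows. Without supplemented cow 6 the first was WIPI1 (0.982), followed by ALOX5AP (0.973), DNM2, MAPK13 and PADI4, the enzyme that citrullinates histones in neutrophils. All correlations across genes share the libraries and their scaling and carry no test.

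Biochemical measures deposited for the same cows are independent of the RNA. Glutathione peroxidase (GSH-Px), superoxide dismutase (SOD), the measures named AC, TBARS and OSi on day 7, and milk at day 30 were each set against log2 CPM of the 3 calgranulins, 18 relations in all. None passed by Pearson's r with Benjamini-Hochberg adjustment (0 of 18, and 0 at an unadjusted permutation p under 0.05). The lowest p was 0.205, for S100A9 with TBARS, a measure of lipid peroxidation (r = 0.40, rho = 0.35, adjusted p = 0.929 by permutation). Without the 2 cows farthest from the median TBARS, r was 0.136.

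By rank, S100A9 and GSH-Px, a selenium enzyme, had rho = -0.594 with a permutation p of 0.0457, adjusted 0.671, and r = -0.364. Within the 6 control cows S100A12 and GSH-Px had r = -0.828 with an exact permutation p of 0.0375, adjusted 0.8 over the 36 relations within groups. In supplemented cows r was -0.155, with an exact permutation p of 0.668. Control cow 4 had the lowest GSH-Px of the 12 cows, 53.2 in the deposited unit, which is not stated. Over all 12 cows of both groups r for S100A12 and GSH-Px was -0.365 (permutation p = 0.235, adjusted 0.929), and over the 10 cows of both groups without the high ones it was -0.24. The difference between the groups' correlations was not tested.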

How the data were processed

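Gene counts were used as the authors deposited them, as raw whole-number counts for each of 12 libraries. Per the submitters' processing notes, the tools were FastQC, STAR, featureCounts and DESeq2 and the build ARS-UCD1.2. The sources used here do not name the annotation, strand setting or tool versions, so reads from overlapping or antisense genes cannot be told apart. The authors' deposited DESeq2 table gives log2 fold changes with standard errors and p-values, per the file headers. The deposited sequencing summary gives a mean quality score and index sequences, per the file headers. The deposited biochemical values, a score each with no unit stated, were read per cow, and OSi was computed as TBARS divided by AC.

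Cows were grouped by the treatment label. Genes with a mean count of at least 10 were tested (11990 of 27429) with edgeR 4.0.16 (TMM, robust quasi-likelihood F test, two-sided, Benjamini-Hochberg adjustment, threshold 0.05). SE was computed as the log2 fold change over the root of F. CPM is TMM-scaled, with a prior count of 2 for log2 CPM. The step was tested on simulated data. Intervals are 95% Wilson intervals, or exact Poisson intervals for the order of cows, and cover counting error only. Correlations with biochemistry used 100000 permutations, or all 720 pairings within a group. Alternatives were DESeq2 1.42.0, limma-voom (limma 3.58.1), other scalings, filters and prior counts, and omission of libraries. Analyses ran in R 4.3.3 and Python 3.11.15 with numpy 2.4.6, scipy 1.17.1, pandas 2.3.3 and matplotlib 3.10.9.

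The members and the lists were chosen with earlier results of these data known. Named genes were the members, genes of the 7 lists and 9 marker sets, and the 12 most like and 5 least like genes by mean r, with and without the library of highest S100A12. SULT1A1, NIBAN1, IL13RA1 and MOCS1 were named after their values were seen.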

Additional observations from a re-analysis of the deposited data

Results flagged for a closer look

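In the supplemented group the highest cow lay far from the other 5 for each calgranulin, judged by the gap to its nearest neighbour over the whole range of the group. Supplemented cow 6 stood at 14.25 log2 CPM for S100A8, 14.83 for S100A9 and 15.25 for S100A12. These were 3 of 10 groups of values checked, and they are not independent, since the 3 genes were measured in the same library. Chance alone marks about 1 in 20 groups in this way, but that rate does not apply to genes chosen with this cow's high levels known, so the marks only describe the spread. The control group, with cow 4 highest, and the ratios of S100A8 and of S100A12 to S100A9 were not marked. The ratio of S100A8 to S100A12 was not checked in this way.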

How the results depend on the processing

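DESeq2 called 2 genes where edgeR called 0. The count of genes called was 0 under the other 19 alternatives tried (leaving out each cow gave 0 throughout), and the number of list genes called was 0 under all 20. Genes at an unadjusted p under 0.05 ran from 121 to 406. The count of biochemical correlations passing was 0 under all 16 alternatives, with leave-one-out counts of 0 throughout. Leaving out 1 cow gave a log2 fold change of -0.85 to 4.15 for S100A8, -1.17 to 3.94 for S100A9 and -0.97 to 3.63 for S100A12, and the values below 0 arose without supplemented cow 6 alone. Without any scaling factor these fold changes were 2.39, 1.92 and 1.88, and the median of all genes moved from 0.01 to -0.05. The log2 range of the S100A8 to S100A9 ratio was 0.86, and 0.59 without control cow 4. Of the 12 most like genes, 8 to 11 were kept with another prior count, with no scaling factor or without supplemented cow 6, 2 by rank correlation and 3 without both high cows. The index set and the omission of both high cows were chosen after seeing the data. No paired analysis was possible because the replicate numbers only name the cows in accession order.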

Other observations

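The cow with the highest cytokine transcripts ranked 4 of 12 for each calgranulin. Control cow 5 had the highest TNF (265 CPM), IL1B (1699 CPM), CXCL8 (535 CPM), IL6 (6.97 CPM) and NFKBIA (2403 CPM) of the 12 cows, genes for inflammatory cytokines, a neutrophil chemokine and the inhibitor of NF-kB. The same cow stood at 446, 837 and 1515 CPM for S100A8, S100A9 and S100A12, above the medians of the 12 cows, and had the lowest level of each per unit of neutrophil markers, at 0.118, 0.221 and 0.399. For S100A9 control cow 6 was almost the same, at 0.223. Control cow 5 also had the highest summed platelet markers, 2194 CPM from the 4 of 6 found, led by TUBB1, the platelet tubulin, at 2054 CPM. Supplemented cow 6 stood at 11.4 CPM for TNF and 754 CPM for the platelet markers. These values come from 1 library each and were not tested.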
